A study of Homo sapiens with 12 samples.

Results

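POU2F3, C11orf53, COLCA2, ASCL2, SPIB, SOX9 and FOXI1 are transcription factors and coactivators that are expressed in, or used to describe, tuft cells and tuft-like tumours. These 7 genes were found by symbol among the 56508 gene symbols measured by mRNA sequencing in H211 and H82, established human small cell lung cancer lines. Each line was sampled after ORY-1001, an inhibitor of LSD1 used at 1 µM, and as a control, in 3 libraries each, so that the 4 groups were H211 ORY-1001, H211 control, H82 ORY-1001 and H82 control. The treatment is labelled as lasting 7 days and the protocol gives 10 days, and which applied was not settled here; the control is labelled PBS in the samples and vehicle in the protocol. All groups carry the genotype label WT and were grown in RPMI with serum, and each tumour type was represented by a single line. No label states that the 3 replicates of a group are separate cultures; the p-values therefore reflect how far these libraries vary, and that variation could be technical.

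Tuft cells are rare chemosensory cells of the airway and gut epithelium that sense luminal signals through a taste-like cascade and release lipid mediators, acetylcholine and cytokines. POU2F3, a POU-domain factor that binds octamer DNA, is required for their formation in mice, and it marks a tuft-like class of small cell lung cancer. C11orf53, now named POU2AF2, and COLCA2, now named POU2AF3, are coactivators that bind POU2F3 on DNA. LSD1, encoded by KDM1A, removes methyl groups from histone H3 and is brought to genes by repressors such as GFI1B.

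Levels are given in the deposited rescaled TPM, a measure of transcript share that is corrected for transcript length, as mean ± SD over 3 libraries (n = 3). Across genes, which are not independent of each other, pairs of libraries from the same group had r of 0.9881 to 0.9912, and pairs from H211 and H82 had r of 0.7861 to 0.8069. KDM1A itself was at 188 ± 4.68 in H211 ORY-1001 against 185 ± 2.57 in H211 control libraries; in H82 the treated libraries were at 190 ± 8.17, against 184 ± 2.43 in control libraries (limma, adjusted p = 0.663 in H211 and 0.354 in H82). NEUROD1, the factor that names another class of small cell lung cancer, was at 1.90 ± 0.166 and 1.69 ± 0.366 in H211 ORY-1001 and control libraries, and at 130 ± 6.02 and 137 ± 2.16 in H82 ORY-1001 and control libraries. Of 7 neuroendocrine genes listed, 6 were tested: 1 was called higher and 5 not with the drug in H211 (18.6% of all genes tested were called there), and 5 were called lower in H82 (23.9% of all genes tested were), INSM1 among them (16.1 ± 1.45 with ORY-1001 and 23.8 ± 2.02 in controls, limma adjusted p = 0.00859).

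Transcripts of blood cells varied between libraries of a group: the 13 listed markers summed to 31.2 to 46.1 in H211 ORY-1001, 42.1 to 247 in H211 control, 31.2 to 141 in H82 ORY-1001 and 41.0 to 55.6 in H82 control libraries. H211 ORY-1001 replicate 3, H211 control replicates 1 and 2, and H82 ORY-1001 replicate 3 stood apart in them within their groups. The myeloid enzyme MPO, for example, reached 24.3 in H211 control replicate 1, and the macrophage enzyme LYZ reached 23.0 in H211 control replicate 2. Fetal globin HBG2 was at 22.3, 16.8 and 0 in H211 ORY-1001 libraries, against 47.4, 40.6 and 18.7 in H211 control libraries, and limma called 0 of the 8 blood markers tested in H211, also at an unadjusted p under 0.05. In H82, 1 of the 8 was called higher. Among all genes tested, 18.6% were called with the drug in H211, and 19.1% were called higher in H82. MPO was at 8.71, 8.55 and 24.3 in H82 ORY-1001 libraries, against 0.0849, 0.0377 and 0.0284 in H82 control libraries (log2 change 3.66, limma adjusted p = 0.0141). LYZ was likewise higher in every treated H82 library, at means of 11.8 with ORY-1001 and 0.296 in controls (adjusted p = 0.135), so myeloid transcripts moved with treatment in H82 and their part in the H82 results was not tested.

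The 7 genes were expressed at very different levels from each other within H211. In H211 control libraries the order was C11orf53 at 323 ± 4.0, POU2F3 at 281 ± 3.91, ASCL2 at 176 ± 2.46, SPIB at 57.4 ± 3.33, FOXI1 at 32.6 ± 1.14, SOX9 at 24.9 ± 1.85 and COLCA2 at 0.926 ± 0.242. In H211 ORY-1001 libraries C11orf53, POU2F3 and ASCL2 kept the first places, at 312 ± 2.29, 251 ± 9.85 and 181 ± 3.61, followed by FOXI1 at 81.7 ± 4.03, SOX9 at 19.6 ± 2.80, SPIB at 11.2 ± 1.14 and COLCA2 at 0.638 ± 0.296. No neighbours in either order had overlapping values between the 3 libraries of the group. SPIB, the fourth of the 7 in H211 control libraries, was thus the sixth with ORY-1001. Among all genes tested, POU2F3 lay above 96.4% of them in H211 ORY-1001 and above 97.1% in H211 control libraries.

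**Figure D1:**
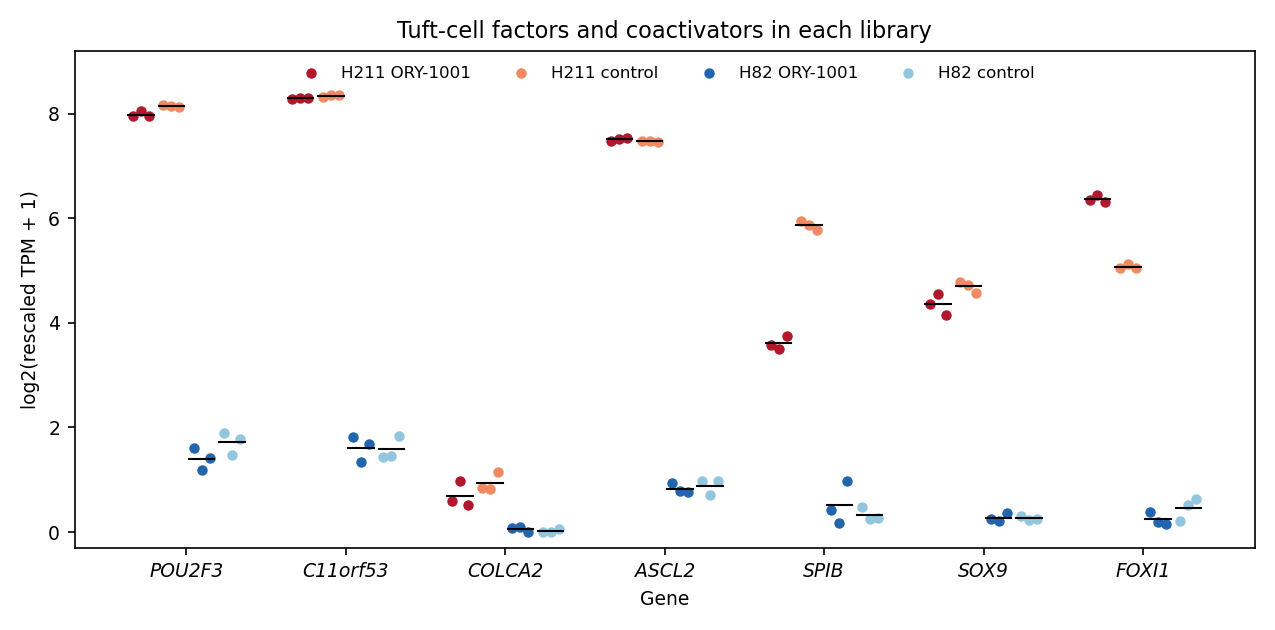
Each point is the level of a gene in a library, as log2(rescaled TPM + 1), for the 4 groups of 3 libraries, with a bar at the group mean. SPIB lies lower and FOXI1 higher in the H211 ORY-1001 libraries than in the H211 control libraries, and all 7 genes lie below 2 on this scale in H82.

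In H82 every one of the 7 genes was low. In H82 control libraries POU2F3 was at 2.31 ± 0.478 and C11orf53 at 2.01 ± 0.488, with overlapping values, followed by ASCL2 at 0.852 ± 0.196. FOXI1 at 0.380 ± 0.196, SPIB at 0.261 ± 0.115 and SOX9 at 0.203 ± 0.0280 overlapped among themselves, and COLCA2 was at 0 in replicates 1 and 2 and at 0.0437 in replicate 3. In H82 ORY-1001 libraries C11orf53 at 2.10 ± 0.525 and POU2F3 at 1.66 ± 0.392 again overlapped, above ASCL2 at 0.783 ± 0.122, SPIB at 0.480 ± 0.437, SOX9 at 0.215 ± 0.0645 and FOXI1 at 0.188 ± 0.103. COLCA2 was at 0.059, 0.0639 and 0 in these.

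The sum of the 7 genes was 858 ± 17.9 in H211 ORY-1001 against 897 ± 8.32 in H211 control libraries. In H82 it was 5.47 ± 1.28 with ORY-1001 against 6.03 ± 1.00 in controls. As bulk RNA was measured, fewer cells with a transcript and less of it per cell cannot be told apart.

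The first comparison asked what ORY-1001 did to these genes in H211, the line in which they are abundant. SPIB fell 5.10-fold and FOXI1 rose 2.51-fold, while POU2F3, C11orf53 and ASCL2 stayed within 1.12-fold of the control mean and did not pass the test. SOX9 fell 1.27-fold, at the edge of the threshold. Differences were tested with limma on log2(rescaled TPM + 1) over 15456 genes with Benjamini-Hochberg adjustment, and a gene was called at an adjusted p under 0.05. Of the 6 genes that passed the filter on low values, 1 was called higher, 2 lower and 3 not; among all genes tested, 18.6% were called, 8.95% higher and 9.61% lower. These were 1383 genes higher and 1485 lower, a balance that became 958 higher and 2009 lower when libraries were scaled to equal totals without mitochondrial genes. The median log2 change was -0.11 over these 6 and -0.00 over all genes tested.

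SPIB encodes an ETS-family factor needed by B cells, plasmacytoid dendritic cells and the M cells of gut epithelium, and it is also expressed in tuft cells. Its level was 10.9, 10.3 and 12.5 in H211 ORY-1001 libraries, against 60.5, 57.7 and 53.9 in H211 control libraries. Every treated library lay far below every control library, and the spread within either group was small beside that gap. The log2 fold change was -2.26 (95% interval -2.63 to -1.88, SE 0.170, limma adjusted p = 5.11e-06). The change kept its direction and its call in all 24 alternative settings, between -2.34 and -1.94, and was -2.24 when the 4 libraries apart in blood cell transcripts were left out.

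SPIB is on chromosome 19 (GENCODE release 29, GRCh38, chr19:50418938-50431313, plus strand). Part of it lies under another gene model on the same strand, AC020909.1, which also overlaps POLD1. AC020909.1 was at 1.29, 1.87 and 1.35 in H211 ORY-1001 libraries against 0, 1.55 and 0 in H211 control libraries (limma adjusted p = 0.0727). Because SPIB also marks B lineage cells, 12 B cell and plasmacytoid dendritic cell genes were read beside it: they summed to 15.7 to 17.3 in H211 ORY-1001 and 11.7 to 17.9 in H211 control libraries, and neither of the 2 that could be tested, CD79B and PAX5, passed with limma, also at an unadjusted p under 0.05. CD79B, which encodes a chain of the B cell receptor, made up most of this sum in each H211 library. Its level was 14.0, 15.9 and 16.1 in H211 ORY-1001 libraries, against 10.4, 11.8 and 15.5 in H211 control libraries. The B cell surface gene MS4A1 was at 0 in all 3 H211 ORY-1001 libraries and in H211 control replicates 1 and 3, and at 0.874 in H211 control replicate 2. CD79A, a B cell receptor chain, was at most 0.252 in H211 ORY-1001 and reached 0.892 in that same control library. SPIB in this library, at 57.7, lay between those of the other control libraries.

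FOXI1 encodes a forkhead factor that specifies ionocytes of the airway and the acid-secreting cells of the kidney. Airway ionocytes are thought to share precursors with tuft cells. The level of FOXI1 was 80.3, 86.2 and 78.5 in H211 ORY-1001 libraries, against 31.9, 33.9 and 32 in H211 control libraries. All 3 treated libraries lay above all 3 controls with no overlap. The log2 fold change was 1.30 (95% interval 1.07 to 1.53, SE 0.105, limma adjusted p = 9.21e-06), and it ranged from 1.20 to 1.35 over the 24 alternative settings with the call kept in each. Its rank rose with it, as it lay above 88.8% of the genes tested in H211 ORY-1001 and above 75.9% in H211 control libraries.

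Most other genes listed for ionocytes were too low to test. Of 12 listed, 2 were high enough to test, and limma called 0 of them higher, also at an unadjusted p under 0.05. Among all genes tested, 8.95% were called higher and 9.61% lower. HEPACAM2, an adhesion molecule found in ionocytes and tuft cells, was called lower, at 207 in H211 ORY-1001 against 255 in H211 control libraries (log2 change -0.30, limma adjusted p = 0.0113), and TFCP2L1, a factor of kidney intercalated cells, was at 4.71 and 3.95 in the same groups (adjusted p = 0.296). CFTR, the chloride channel that ionocytes are known for, was listed at 0 in the H211 libraries other than a treated library with 0.0101. Among the genes too low to test, ATP6V1C2, a proton pump subunit, was at 1.05, 0.792 and 0.859 in H211 ORY-1001 libraries, against 0.351, 0.611 and 0.419 in H211 control libraries. ATP6V0D2, another subunit, was at 0.0596, 0.115 and 0.0618 against listed values of 0 in all 3 controls. Both were higher in every treated H211 library (exact permutation test, two-sided, p = 0.1 each, the smallest possible). Both were also higher in every treated H82 library than in every H82 control library. TMEM61, also too low to test, was at 0.135, 0.149 and 0.242 in H211 ORY-1001 libraries, against 0.323, 0.325 and 0.469 in H211 control libraries. These genes were picked after their values were seen. HEPACAM2 made up nearly all of the summed level of the list, and the other 11 genes summed to 5.88 to 6.70 in H211 ORY-1001 and 4.39 to 6.15 in H211 control libraries. FOXI1 is on chromosome 5 (chr5:170105897-170109725, plus strand) and overlaps no other annotated gene.

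Of the 6 genes tested, SPIB and FOXI1 changed most with the drug in H211, and their promoter windows are shown for that reason. Each runs from 250 bases before to 50 bases after the annotated start, on the plus strand, from RefSeq on GRCh38.p14 (SPIB chr19:50418688-50418987; FOXI1 chr5:170105647-170105946). Such windows were at hand for 3 of the 7 genes, the other being COLCA2. Capitals mark matches to any of the motifs searched on both strands.
SPIB: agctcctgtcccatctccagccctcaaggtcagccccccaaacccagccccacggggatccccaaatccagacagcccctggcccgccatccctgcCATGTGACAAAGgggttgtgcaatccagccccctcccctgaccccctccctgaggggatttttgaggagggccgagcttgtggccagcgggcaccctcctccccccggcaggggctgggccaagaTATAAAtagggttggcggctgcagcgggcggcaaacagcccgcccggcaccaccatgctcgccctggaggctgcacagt
FOXI1: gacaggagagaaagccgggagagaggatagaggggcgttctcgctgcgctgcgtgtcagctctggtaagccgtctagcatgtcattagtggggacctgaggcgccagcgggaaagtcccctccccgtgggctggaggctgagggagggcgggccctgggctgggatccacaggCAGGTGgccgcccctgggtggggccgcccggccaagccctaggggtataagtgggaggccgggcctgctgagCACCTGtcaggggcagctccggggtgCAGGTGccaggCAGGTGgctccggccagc

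In the SPIB window the capitals mark an E-box, CATGTG, that begins 154 bases before the start, a SOX-type match ACAAAG directly after it, and a TATAAA box 29 bases before the start. In the FOXI1 window they mark 4 E-boxes, CAGGTG 77 bases before the start, CACCTG 5 bases before, and CAGGTG 22 and 33 bases after it. E-boxes (CANNTG) are the sites of basic helix-loop-helix factors such as ASCL2, and 68.7% of the 35116 windows in the table hold at least 1. ACAAAG was present in 16.1% of all windows and TATAAA in 11.5%. Neither window held the octamer core TGCAAAT, the ETS match GGAAGT, the forkhead match TGTTTAC or the SOX match ACAATG, which occur in 4.2%, 22.8%, 3.42% and 10.8% of windows. These matches are letters in a window and say nothing of binding; the GC content was 67% for SPIB and 69.7% for FOXI1, where the median of all windows was 58.7%.

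The octamer factor POU2F3 was at 246, 263 and 246 in H211 ORY-1001 libraries, against 285, 281 and 277 in H211 control libraries. All 3 treated libraries lay below all 3 controls, by a gap smaller than the range of the treated libraries. The log2 fold change was -0.16 (95% interval -0.41 to 0.09) and missed the threshold in the fit to all 12 libraries (limma adjusted p = 0.3695). It passed when the fit held the 6 H211 libraries alone (95% interval -0.25 to -0.07, limma adjusted p = 0.0340), where 14.8% of genes tested were called. POU2F3 is on chromosome 11 (chr11:120236640-120319944, plus strand), with a minus-strand antisense gene, AP001150.1, inside it that averaged 0.597 in H211 ORY-1001 and 0.338 in H211 control libraries.

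Its coactivator C11orf53 was at 309.7, 314 and 313 in H211 ORY-1001 libraries, against 319, 325 and 326 in H211 control libraries. The treated values again all lay below the controls, here by a few per cent of the level. A log2 fold change of -0.05 had a 95% interval of -0.32 to 0.22 (limma adjusted p = 0.830).

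COLCA2, the other coactivator, reached 1 in a single library and was not part of the fit. It was at 0.513, 0.976 and 0.425 in H211 ORY-1001 libraries, against 0.802, 0.771 and 1.21 in H211 control libraries. The groups overlapped (exact permutation test, two-sided, p = 0.3; the smallest p that 3 against 3 allows is 0.1). COLCA2 amounted to 0.204 ± 0.0937% of C11orf53 in H211 ORY-1001 and 0.286 ± 0.0727% in H211 control libraries, so that nearly all coactivator transcript of this pair was C11orf53. The 2 genes are neighbours on chromosome 11: C11orf53 (chr11:111245805-111286401) ends 12.2 kb before COLCA2 (chr11:111298555-111308735), both on the plus strand. POU2AF1, the related coactivator of B cells, begins its annotated span 43.5 kb further on and was at 0.0256 in H211 ORY-1001 and 0.0622 in H211 control libraries on average. COLCA1, a minus-strand gene that overlaps COLCA2, averaged 0.374 and 0.428 in these groups.

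ASCL2, a basic helix-loop-helix factor of intestinal stem cells that is also high in tuft-like small cell lung cancer, was at 177, 181 and 184 in H211 ORY-1001 libraries, against 178, 177 and 173 in H211 control libraries. The groups overlapped and differed by less than the spread of the treated libraries. This gave a log2 fold change of 0.04 (95% interval -0.13 to 0.20, limma adjusted p = 0.800). ASCL2 is on chromosome 11 (chr11:2268495-2270952, minus strand) and overlaps no other annotated gene.

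SOX9, an HMG-box factor of epithelial progenitors and, in mouse gut, of tuft cells, was at 19.7, 22.4 and 16.8 in H211 ORY-1001 libraries, against 26.4, 25.5 and 22.9 in H211 control libraries. The highest treated library was just below the lowest control, so the groups did not overlap. The log2 fold change was -0.34 (95% interval -0.57 to -0.11, SE 0.104, limma adjusted p = 0.0422). The call was lost in 14 of the 24 alternative settings. It was lost without H211 ORY-1001 replicate 1 or 3 (adjusted p = 0.0969 and 0.148 with limma), without H211 control replicate 1 or 2 (0.140 and 0.119), and without H82 ORY-1001 replicate 2 or any H82 control library (0.0514 to 0.0547). In the fit to the 6 H211 libraries alone it was lost as well (limma adjusted p = 0.0965). Leaving out the 4 libraries apart in blood cell transcripts, the log2 change was -0.12 (limma adjusted p = 0.702).

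SOX9 is on chromosome 17 (chr17:72121020-72126420, plus strand) within the much longer minus-strand gene SOX9-AS1. SOX9-AS1 was at 3.01, 2.40 and 3.01 in H211 ORY-1001 libraries, against 6.60, 4.25 and 6.28 in H211 control libraries. Every treated library was below every control (log2 change -0.80, limma adjusted p = 0.00188). No source used here says whether counting used strand. Reads from any stretch that SOX9 and SOX9-AS1 share may therefore not have been told apart, which was not tested.

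**Figure D2:**
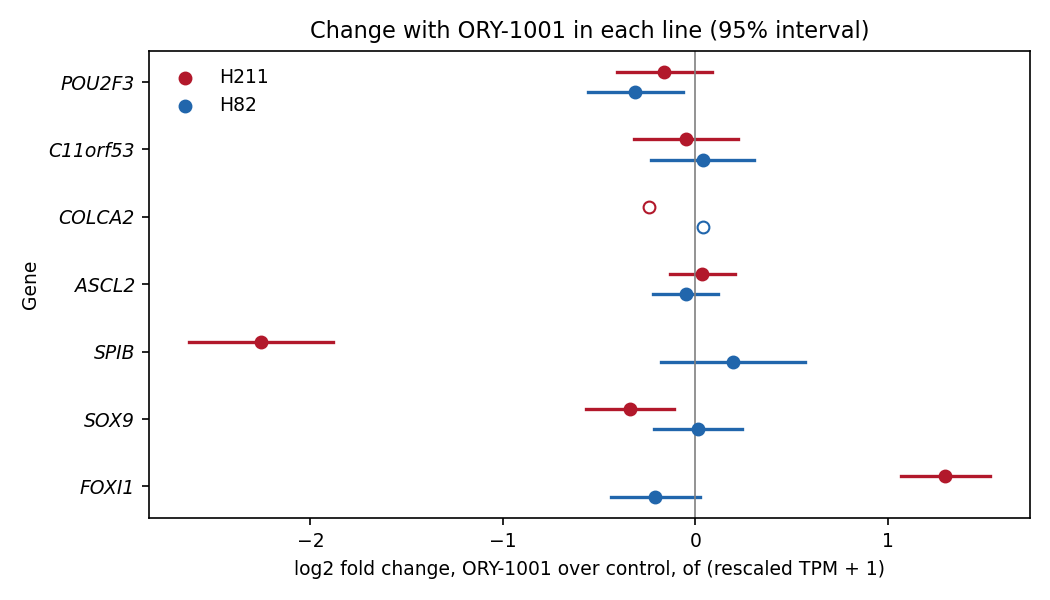
Log2 fold change of each gene with ORY-1001 over control, in H211 and in H82, on the log2(rescaled TPM + 1) scale; lines are 95% intervals from limma, and open circles are the untested differences of COLCA2. SPIB at -2.26 and FOXI1 at 1.30 stand apart in H211, and no H82 value lies beyond -0.31 or 0.19. In every H82 library COLCA2, ASCL2, SPIB, SOX9 and FOXI1 were below the 1 that is added before taking logs. This keeps small any change at such levels.

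Levels relative to POU2F3 in the same library gave a view that does not depend on the scaling between libraries. SPIB amounted to 4.49 ± 0.585% of POU2F3 in H211 ORY-1001 and 20.4 ± 0.905% in H211 control libraries. FOXI1 amounted to 32.5 ± 0.477% and 11.6 ± 0.449% of POU2F3 in the same groups. The ratio of FOXI1 to SPIB was 7.33 ± 1.04 in H211 ORY-1001 and 0.570 ± 0.0369 in H211 control libraries, so the more abundant gene of this pair was FOXI1 with the drug and SPIB without it. The other factors differed less between the groups when set against POU2F3: ASCL2 was at 72.0 ± 2.96% and 62.7 ± 0.355%, C11orf53 at 124 ± 4.29% and 115 ± 2.97%, and SOX9 at 7.78 ± 0.868% and 8.87 ± 0.545% in ORY-1001 and control libraries of H211.

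**Figure D3:**
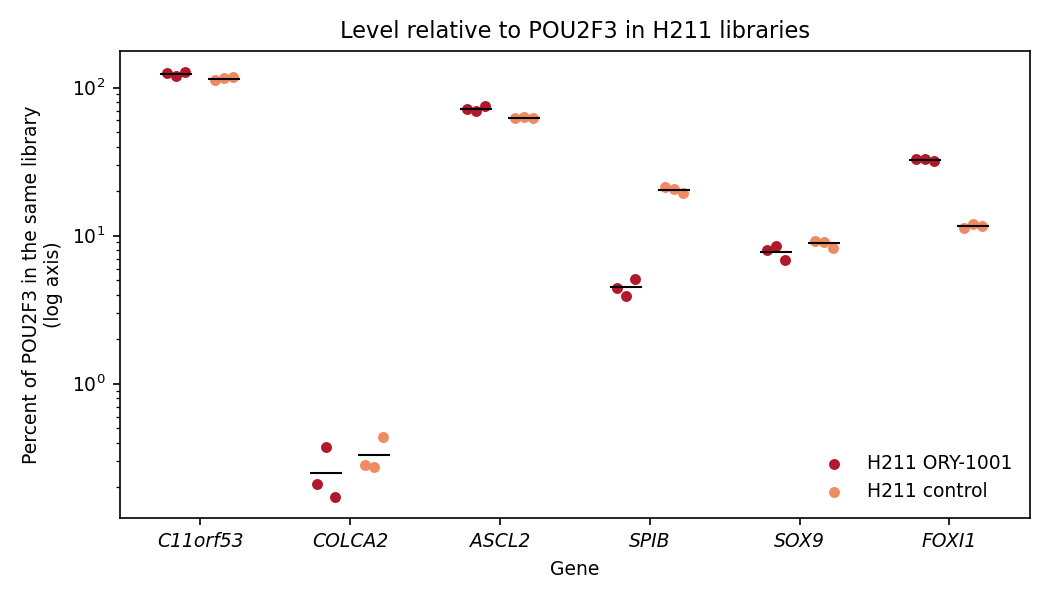
Level of the other 6 genes as a percentage of POU2F3 in the same H211 library (log axis), with ORY-1001 left of control and a bar at each mean. SPIB is near 4.49% with ORY-1001 and 20.4% in controls, FOXI1 near 32.5% and 11.6%, and the other genes differ far less between the groups.

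In H82 the drug was compared with control in the same way. POU2F3 was at 2.06, 1.28 and 1.66 in H82 ORY-1001 libraries, against 2.72, 1.78 and 2.42 in H82 control libraries. The groups overlapped, since treated replicate 1 lay above control replicate 2. On the log2 scale the change was -0.31 (95% interval -0.56 to -0.06, limma adjusted p = 0.0433), the single call among the 6 genes tested in this line, where 43% of all genes tested were called, 19.1% higher and 23.9% lower. The call was lost in 16 of 24 alternative settings. It was lost without any 1 of the 6 H211 libraries (limma adjusted p = 0.0541 to 0.0579), without H82 ORY-1001 replicate 2 or 3 (0.164 and 0.0823), without H82 control replicate 1 or 3 (0.160 and 0.116), and in a fit of the H82 libraries alone (0.170).

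The other genes did not pass in H82, where ASCL2, SPIB, SOX9 and FOXI1 were below 1 in every library. On the log2(rescaled TPM + 1) scale, changes at such levels are kept small. C11orf53 was at 2.55, 1.52 and 2.22 in H82 ORY-1001 libraries, against 1.72, 1.75 and 2.58 in H82 control libraries (log2 change 0.04, 95% interval -0.23 to 0.31, limma adjusted p = 0.849). ASCL2 was at 0.922, 0.734 and 0.694 against 0.969, 0.625 and 0.961 (-0.05, interval -0.22 to 0.12, adjusted p = 0.647). Both pairs of groups overlapped. SPIB was at 0.344, 0.128 and 0.968 in H82 ORY-1001 libraries, against 0.394, 0.187 and 0.202 in H82 control libraries (0.19, interval -0.18 to 0.57, limma adjusted p = 0.396). Its highest value was in ORY-1001 replicate 3, a library that stood apart in blood cell transcripts, and without the 4 such libraries the change was -0.03. ORY-1001 replicates 1 and 2, which carried myeloid transcripts as well, were kept there.

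SOX9 was at 0.196, 0.162 and 0.287 in H82 ORY-1001 libraries, against 0.234, 0.180 and 0.194 in H82 control libraries (log2 change 0.01, 95% interval -0.21 to 0.24, limma adjusted p = 0.939). FOXI1 was at 0.307, 0.139 and 0.120 against 0.162, 0.439 and 0.541 (-0.21, interval -0.44 to 0.02, adjusted p = 0.133). In both genes the groups overlapped, and for FOXI1 the call appeared when H82 control replicate 1 was left out (limma adjusted p = 0.0130).

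The log2 fold changes of the 2 lines were also set against each other, as H211 minus H82, which uses the same libraries as the comparisons above. It was -2.45 for SPIB (95% interval -2.98 to -1.92, limma adjusted p = 3.11e-05) and 1.51 for FOXI1 (1.18 to 1.83, adjusted p = 3.20e-05), both on the log2(rescaled TPM + 1) scale. The level of SPIB and FOXI1 in H82 was below the pseudocount of 1, and both passed the filter only through H211. On this scale an equal fold in H82 would have given a change of -0.26 for SPIB and 0.50 for FOXI1, and so a difference of -1.99 and 0.80 with no difference in fold. Such tests ask for any difference on this scale, and so do not by themselves show that the fold of either gene differed between the lines. The equal-fold value lay within the 95% interval of the difference for SPIB and below it for FOXI1. Counting error at these H82 levels is unknown. Of the 6 genes, 1 was called higher, 1 lower and 4 not; 32.1% of all genes tested were called, 17.8% higher and 14.3% lower. These were 2747 genes higher and 2209 lower, against 2234 and 2557 with totals scaled without mitochondrial genes.

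The difference was -0.35 for SOX9 (95% interval -0.68 to -0.03, limma adjusted p = 0.0893) and was called without H211 ORY-1001 replicate 2 (-0.45, adjusted p = 0.0344). It was 0.15 for POU2F3 (-0.20 to 0.50, adjusted p = 0.513), -0.09 for C11orf53 (-0.47 to 0.29, adjusted p = 0.744) and 0.09 for ASCL2 (adjusted p = 0.585). These intervals do not show that the lines responded alike.

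The lines themselves were set against each other in controls and with the drug. POU2F3 was 122-fold, C11orf53 161-fold and ASCL2 207-fold higher in H211 control than in H82 control libraries. SPIB was 220-fold, SOX9 123-fold and FOXI1 85.7-fold higher. In each gene every H211 library lay above every H82 library, and ASCL2, for example, differed by 6.59 on the log2 scale (limma adjusted p = 6.78e-14). ASCL2, SPIB, SOX9 and FOXI1 passed the filter on low values only through H211 and had to differ, so the count of genes called, 6 of 6 tested, supports nothing; 80.5% of all genes tested were called between the control groups, 39.7% higher and 40.8% lower. Scaling without mitochondrial genes moved the median log2 difference of all genes between the control groups to 0.14, from -0.02 as deposited.

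With ORY-1001 the folds of H211 over H82 were 151 for POU2F3, 149 for C11orf53, 231 for ASCL2, 23.4 for SPIB, 91.2 for SOX9 and 433 for FOXI1. The fold of SPIB was 47.7 without H82 ORY-1001 replicate 3. Of these 6, SPIB had the smallest fold between the lines with the drug and FOXI1 the largest. All 6 were called higher in H211 ORY-1001, where 80.2% of all genes tested were called, 39.7% higher and 40.6% lower; here too, ASCL2, SPIB, SOX9 and FOXI1 had to differ, and the count supports nothing. COLCA2 in H211 lay above H82 in every library, with and without the drug (exact permutation test, two-sided, p = 0.1 each, the smallest possible).

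The low levels in H82 were set beside those of other genes that are abundant in H211. Of 1381 genes at 100 or more in H211 control libraries, 1 was at 0 in all H82 control libraries and 42 were above 0 at under 2% of their H211 control level. These 42 include POU2F3 at 0.820%, C11orf53 at 0.623% and ASCL2 at 0.483%, the lowest percentage above 0 of any of the 1381 genes. In single H82 libraries the median of the 39 others was 0.870%, 0.908% and 0.959% with ORY-1001, and 0.951%, 0.859% and 1.01% in controls. The percentages for SPIB, SOX9 and FOXI1 in H82 control libraries were 0.455%, 0.813% and 1.17%. The 42 genes were selected for a low percentage, and the median over all 1381 was 81.6%. The part of RNA or reads shared between libraries in these low values was not tested.

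**Figure D4:**
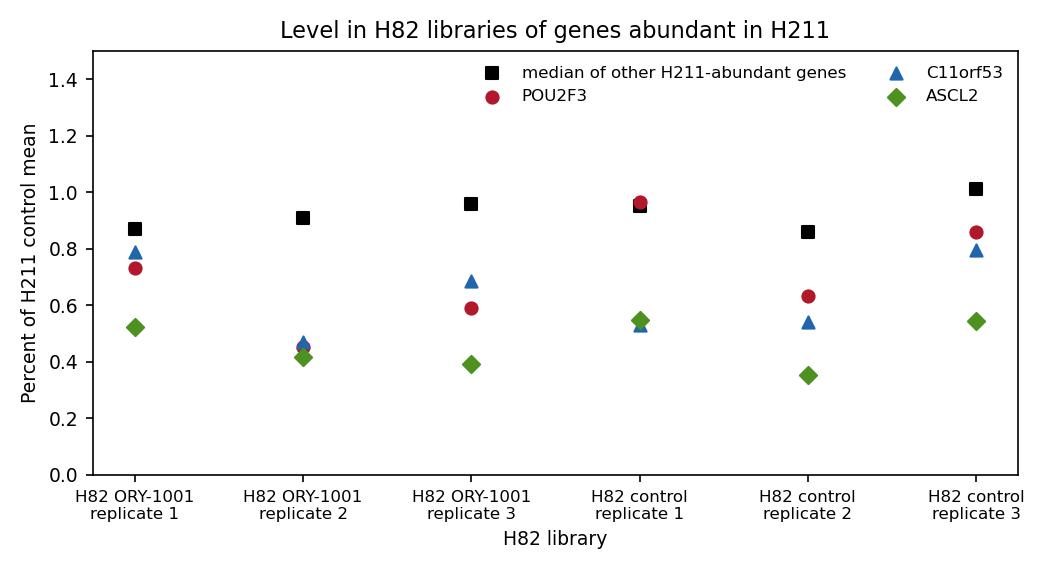
Level in each H82 library as a percentage of the H211 control mean, for POU2F3, C11orf53 and ASCL2 and for the median of 39 other genes abundant in H211 (black squares). The squares lie between 0.859% and 1.01%, and POU2F3, C11orf53 and ASCL2 lie between 0.355% and 0.966%.

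Relatives and neighbours of the 7 genes were low in both lines. Of 14 listed, 4 could be tested. With the drug, limma called 0 in H211 (2 were lower at an unadjusted p under 0.05) and 2 lower in H82. Among all genes tested, 18.6% were called in H211 and 23.9% were called lower in H82. POU2F2, the octamer factor of B cells and neurons, was at 1.92, 1.41 and 1.80 in H82 ORY-1001 libraries, against 3.29, 3.79 and 4.79 in H82 control libraries. All treated libraries lay below all controls (log2 change -0.86, limma adjusted p = 0.00125). In H211 ORY-1001 libraries it was at 0.672, 0.160 and 0.503, against 0.0318, 0.301 and 0.195 in H211 control libraries, with overlap. The difference between the lines' changes was 1.15 (limma adjusted p = 0.00300). POU2F2 was below the pseudocount of 1 in every H211 library and passed the filter only through H82. This difference therefore does not show that its fold change differed between the lines.

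POU2F1, the octamer factor of most tissues, averaged 3.58 ± 0.445 in H82 ORY-1001 and 5.16 ± 0.846 in H82 control libraries (log2 change -0.42, limma adjusted p = 0.0357). It was not called in H82 without ORY-1001 replicate 2 (adjusted p = 0.0565) or 3 (0.122) or without control replicate 2 (0.122) or 3 (0.104). POU2F1 was at 0.801 and 1.36 in H211 ORY-1001 and control libraries on average (limma adjusted p = 0.10), so POU2F3 was the most abundant of the 3 octamer factors in H211. FOXI3, another forkhead factor of the FOXI family, was at 2.62, 2.82 and 2.63 in H211 ORY-1001 libraries, against 3.82, 3.30 and 3.21 in H211 control libraries (log2 change -0.26, limma adjusted p = 0.0565), while FOXI1 was higher in the treated libraries. SPI1, an ETS factor related to SPIB, was at 1.05 and 1.20 in the H211 groups (adjusted p = 0.837). ASCL3 and ASCL4 were listed at 0 in all 12 libraries.

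Genes that carry out tuft-cell functions were read beside the factors. Of 27 listed, 26 were in the table and 20 could be tested; in H211, 1 was called higher with ORY-1001, 11 lower and 8 not. The median log2 change was -0.47 over these 20 and -0.00 over all genes tested, of which 8.95% were called higher and 9.61% lower. PTGS1, the cyclooxygenase of prostaglandin synthesis, was at 0.904, 0.892 and 0.97 in H211 ORY-1001 libraries, against 12.1, 12.2 and 10.4 in H211 control libraries. This was a 12.6-fold lower level (log2 change -2.71, limma adjusted p = 8.52e-09). RGS13, a regulator of G-protein signalling, averaged 572 with ORY-1001 and 1399 in controls (log2 change -1.29, adjusted p = 0.000519), and CHAT, which makes acetylcholine, 1.53 and 6.41 (-1.55, adjusted p = 8.96e-08). CHAT was higher in H82, at 13.4 with ORY-1001 and 14.9 in controls. Of the 20, 3 were called lower and 16 higher in H211 control than in H82 control libraries (40.8% and 39.7% of all genes tested). Several of the 16 passed the filter only through H211 and had to differ. RGS13, CHAT, LRMP and ANXA1 were picked from the list after their values were seen.

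LRMP, an endoplasmic reticulum membrane protein high in tuft cells, averaged 702 in H211 ORY-1001 and 1162 in H211 control libraries (log2 change -0.73, limma adjusted p = 0.00389), and ANXA1, a phospholipid-binding protein, 69.0 and 359 (-2.36, adjusted p = 9.41e-08). AVIL, an actin-binding protein of the tuft, averaged 506 and 659 (log2 change -0.38, adjusted p = 0.19), and TRPM5, the cation channel at the end of the taste-like cascade, 31.8 and 38.5 (-0.27, adjusted p = 0.112). Both passed in the fit to the H211 libraries alone (limma adjusted p = 0.00208 for AVIL and 0.00940 for TRPM5), and both were lower in every treated library. Other genes of the list had a higher treated mean without passing the test: GNG13 and GNAT3, G-protein subunits of the taste-like cascade, averaged 194 and 69.9 in H211 ORY-1001, against 159.6 and 65.2 in H211 control libraries (limma adjusted p = 0.220 and 0.544), with overlapping groups. DCLK1, a kinase widely used as a tuft marker, averaged 2.32 and 2.03 (adjusted p = 0.514); these 3 were picked after their values were seen. GFI1B was at 24.7, 25.9 and 23.8 in H211 ORY-1001 libraries, against 14.3, 13.7 and 12.5 in H211 control libraries, all treated libraries above all controls (log2 change 0.83, adjusted p = 0.00252); its adjusted p was 0.161 with a pseudocount of 0.1.

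**Figure D5:**
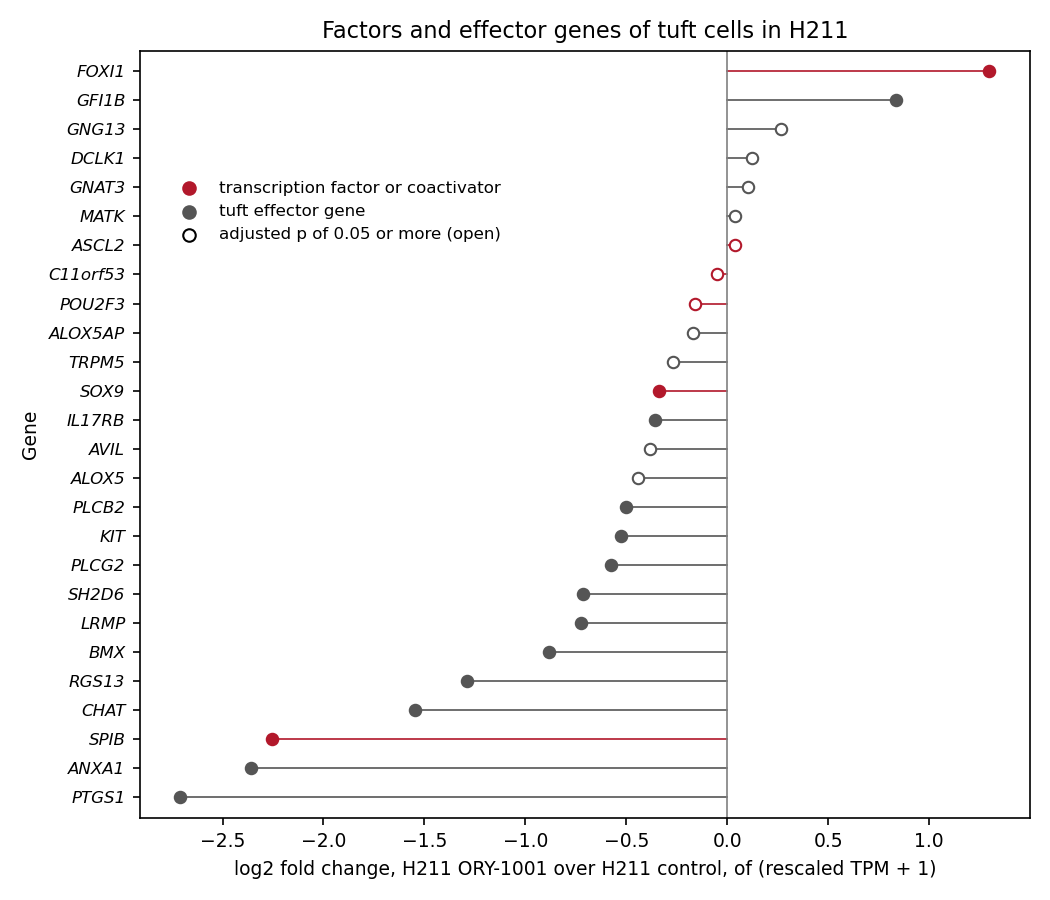
Log2 fold change in H211, ORY-1001 over control, of the 6 tested factors and coactivators (red) and the 20 tested tuft effector genes (grey), in order of size; filled points have a limma adjusted p under 0.05. SPIB at -2.26 lies beside ANXA1 and PTGS1 at the lower end, and FOXI1 at 1.30 and GFI1B at 0.83 lie at the upper end.

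The summed level of the 26 effector genes was 2478 to 2503 in H211 ORY-1001 libraries and 4295 to 4533 in H211 control libraries. RGS13, LRMP, AVIL and ANXA1 made up most of this level in each H211 library, so the sum mainly reflects these genes. In H82 the sum of the 26 genes was 52.0 to 57.3 with ORY-1001 and 46.5 to 65.3 in controls. There, 2 effector genes were called higher, 2 lower and 16 not (19.1% and 23.9% of all genes tested were called higher and lower), with a median log2 change of -0.09 over these 20 and -0.02 over all genes tested. In the difference between the lines, 1 was called higher and 9 lower (17.8% and 14.3% of all genes tested). The median was -0.40 against 0.01 over all genes tested. Several of these genes, such as TRPM5, PTGS1 and GFI1B, were below the pseudocount of 1 in every H82 library and passed the filter only through H211. On this scale their changes in H82 are held small, so the count and the median do not show that folds differed between the lines.

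The genes whose values ran most like each factor over the 12 libraries were found by the root mean square difference of their centred log2 values, among 11347 genes. For POU2F3 they were ASCL2 at 0.15, AVIL at 0.18 and NMU, a neuropeptide, at 0.18. For C11orf53 they were EPCAM, an epithelial adhesion protein, at 0.13, ASCL2 at 0.14 and GPX2, a glutathione peroxidase, at 0.19, and ASCL2 had EPCAM, GPX2 and C11orf53 as its nearest at 0.08, 0.13 and 0.14. The 3 most abundant factors were therefore among each other's nearest genes or shared them. The distance is set mostly by the difference between the lines, and the 12 libraries share their lines and treatments.

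SPIB had more distant nearest genes, ACKR3 at 0.28, SCIN at 0.36 and ALDH1A1 at 0.45. ACKR3, a chemokine receptor, averaged 13.9 in H211 ORY-1001 and 46.0 in H211 control libraries, SCIN, an actin-severing protein, 25.3 and 86.9, and ALDH1A1, a retinal dehydrogenase, 14.1 and 54.9. The nearest to FOXI1 were KRT19, an epithelial keratin that averaged 172 in H211 ORY-1001 and 49.4 in H211 control libraries, at 0.24, SFN, a 14-3-3 protein, at 0.29 and MT1E, a metallothionein, at 0.29. SFN averaged 103 in H211 ORY-1001 and 67.0 in H211 control libraries, and MT1E 57.8 and 39.4. For SOX9 the nearest genes were MAP7, FAM198B and C6orf132 at 0.10, 0.13 and 0.14.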

How the data were processed

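Messenger RNA was enriched with oligo(dT) beads and sequenced as paired ends on an Illumina HiSeq from 12 libraries in 4 groups of 3, per the labels' protocols. The submitters' processing notes name Salmon 1.1.0, sleuth 0.30.0, STAR 2.5.2b, Trimmomatic 0.36, Subread 1.5.2 with featureCounts, DESeq2, R 4.0.4 and the build hg38, with no role or order. The authors deposited a table of 56508 gene symbols whose values are a signal close to TPM; column totals of 967415 to 1111988 show that the TPM had been rescaled between libraries. Such values keep no depth, so no counting error can be given, and tests planned for TPM were used. Identical values made up at most 1.52% between any pair of libraries.

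Values were analysed as log2(value + 1), which understates changes of low genes. Genes at 1 or more in at least 3 libraries were kept (15456, including 6 of the 7 described). limma 3.58.1 in R 4.3.3 fitted 4 group means to all 12 libraries (eBayes with a trend, two-sided, Benjamini-Hochberg over all genes tested, threshold 0.05). Folds beside means are ratios of group means. COLCA2 was given an exact permutation test over samples. The fit was tested on simulated data.

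The 7 genes and the other lists were chosen with earlier results of these data known. The genes named were all 7, members of a list of 14 relatives and neighbours (not all are reported here), set genes of each marker list, and the 3 genes nearest each factor; other effector genes were picked with their values known. Gene positions are those of GENCODE release 29, which need not be the authors' annotation; promoters come from RefSeq.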

Additional observations from a re-analysis of the deposited data

Results flagged for a closer look

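The log2 fold change of SPIB with ORY-1001 in H211 minus that in H82 was -2.45 on the log2(rescaled TPM + 1) scale (limma adjusted p = 3.11e-05), and that of FOXI1 was 1.51 (limma adjusted p = 3.20e-05); both were picked out by this test of the difference between the lines. In H82 both genes were below 1 rescaled TPM in every library, and they passed the filter on low values only through H211. An equal fold in both lines would itself have left a difference of -1.99 for SPIB and 0.80 for FOXI1 on this scale. The test by itself therefore does not show that the folds differed between the lines. For SPIB the equal-fold value lay within the 95% interval of the difference (-2.98 to -1.92). For FOXI1 it lay below the interval (1.18 to 1.83). Groups of 3 libraries were too small for the outlier test of single values; leaving out single libraries is reported with the processing alternatives.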

How the results depend on the processing

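Each result was recomputed under 24 alternatives (23 for the difference between the lines), which changed the pseudocount, filter, scaling, variance trend, library weights, replicate block or libraries used. The calls of SPIB and FOXI1 in H211 held in all of them. Their calls in the difference between the lines held as well. An equal fold in both lines would itself have left a difference on the main scale, so this does not show that the folds differed. The calls of SOX9 in H211 and POU2F3 in H82 did not hold in all settings. In the fit to the H211 libraries alone SOX9 lost its call and POU2F3 gained it, which left the count at 2. In H211, the number of the 7 genes called lower was 1 in place of 2 with a pseudocount of 0.1, with all genes above 0 kept, with quantile normalization, with the replicate block and without the 4 libraries apart in blood cell transcripts, and 1 to 2 when single libraries were left out. In H82 the number called lower was 0 in place of 1 with a pseudocount of 5, with all genes above 0 kept, with quantile normalization, with no variance trend, with the groups compared alone and without the 4 libraries, and 0 to 1 when single libraries were left out. In the difference it was 1 to 2 over single libraries. Without the 4 libraries, which left H211 control with a lone library assumed to vary like the other groups, 374 genes were called higher and 291 lower in H211, against 1383 and 1485 with all libraries, and in the difference 1745 higher and 1293 lower. The cause of these shifts was not tested beyond the fewer libraries used. In H82 this setting kept ORY-1001 replicates 1 and 2, which carried myeloid transcripts. It therefore did not free the H82 comparison, or the difference, of blood cell transcripts.

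Some changes that were not called turned direction. ASCL2 in H211 was -0.0343 with quantile normalization and -0.0255 with totals set without mitochondrial genes. In H82, SOX9 was -0.0181 with quantile normalization, -0.0286 without the 4 libraries and -0.0286 to 0.0451 over single libraries left out; C11orf53 was -0.0394 with library weights and -0.0690 to 0.178 over single libraries; SPIB was -0.0312 without the 4 libraries and -0.0312 to 0.371 over single libraries. In the difference, POU2F3 was -0.0265 with a pseudocount of 5, and C11orf53 was -0.227 to 0.0194 over single libraries.

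Same-numbered libraries showed no clear shared deviation: their deviations correlated at -0.0805 to -0.00874 in H211 and -0.0350 to 0.0449 in H82. With 3 libraries in a group, this cannot show that the samples were not paired. With the replicate block, SOX9 in H211 had a limma adjusted p of 0.0522 and a log2 change of -0.34, and no other call among the 6 genes changed. Depth is unknown, so levels near 0 in H82 carry no counting interval. COLCA2, kept out by the filter, had an adjusted p of 0.346 with the drug in H211 when all genes above 0 were kept.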
